A study of Mus musculus with 10 samples.

Results

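Whole oviducts collected for a progesterone receptor study were examined for transcripts of the neighbouring ovary. The genes followed were 35 that mark steroid-producing ovarian cells, granulosa and cumulus cells or oocytes, chosen by symbol. Of these, 31 had a probe set paired with 1 gene symbol in the platform annotation, out of 19938 genes measured that way, and the probe set with the highest mean over the 10 arrays stood for each. Cyp19a1, Lhcgr, Insl3 and Oog1 had no such probe set and were not analysed here. The 31 comprise 7 steroidogenic, 6 granulosa, 3 cumulus and 15 oocyte genes.

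The PRKO group held mice homozygous for a lacZ insertion in the progesterone receptor gene, Pgr, which stops transcription of both receptor isoforms. The PR+/- group held mice with the same insertion on a single allele, which have normal fertility. Both groups were pre-pubertal mice primed with equine chorionic gonadotropin (eCG, 5 IU), which grows follicles, and then given human chorionic gonadotropin (hCG, 5 IU), the signal for ovulation, with collection 8 h after hCG. Each array held the oviducts of 3 pooled animals, so each group had 5 arrays and 15 animals. The insertion is present in every cell of the animal, ovary included, and was not limited to the oviduct.

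In the ovary, theca and luteinising granulosa cells turn cholesterol into steroids, granulosa cells nurse the follicle, cumulus cells surround the oocyte in a hyaluronan matrix after the hCG signal, and the oocyte makes the zona pellucida and the proteins of the early embryo. In the mouse the oviduct lies coiled against the ovary inside the bursa. In mice given hCG, follicles rupture later than the time of collection used here, and ovulation fails in mice without the progesterone receptor. The values below are signals of pools of whole tissue, taken to be on a log2 scale from their range, and p-values measure the spread between pools. In such samples fewer cells of a type and less RNA per cell cannot be told apart.

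Pgr was 6.31 to 6.39 in PRKO oviducts, against 7.27 to 7.55 in PR+/- oviducts, so the arrays followed their genotype labels. The arrays had medians of 5.22 to 5.28 in PRKO and 5.20 to 5.24 in PR+/-. The mean correlation of an array with the others of its genotype was 0.9887 to 0.9913 in PRKO and 0.9950 to 0.9957 in PR+/-. PRKO replicate 3 was at 0.9913, the top of its group's range together with replicate 2, and PR+/- replicate 4 was at 0.9950, the bottom of its group's. The labels give no scan or extraction batch.

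Signals of ovarian genes were raised on PRKO replicate 3 and on PR+/- replicate 4. On each of these arrays 6 of the 31 genes were at least 1 log2 unit above the gene's median over the 10 arrays, while 0 of the 31 reached that excess on any of the other 8 arrays. Over all genes tested, 0.1% reached it on PRKO replicate 3 and 0.13% on PR+/- replicate 4. On PRKO replicates 1, 2, 4 and 5 the share of all genes was 0.0652%, 0.00502%, 0.0351% and 0.291%, and on PR+/- replicates 1, 2, 3 and 5 it was 0.0301%, 0.0401%, 0.0301% and 0.0401%. PRKO replicate 5 thus had the most such genes over the whole table, 58, with none of the 31 among them.

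The same 2 arrays held most of the highest values. PRKO replicate 3 was the highest of the 10 arrays for 19 of the 31 genes (61.3%), against 10.3% of all genes. PR+/- replicate 4 was the highest for 7 of them (22.6%), against 5.41% of all genes, the lowest share of any array. For 15 of the 31 genes these arrays took the top 2 places, which they did for 1.17% of all genes. The remaining 5 genes peaked elsewhere, Fshr, Dppa3 and Kit on PRKO replicate 1, Nr5a1 on PRKO replicate 5 and Foxl2 on PR+/- replicate 1. Those arrays were the highest for 15.7%, 16% and 8.49% of all genes, and the remaining PRKO replicates 2 and 4 and PR+/- replicates 2, 3 and 5 for 10.3%, 12.3%, 7.18%, 8.17% and 6.11%.

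**Figure D1:**
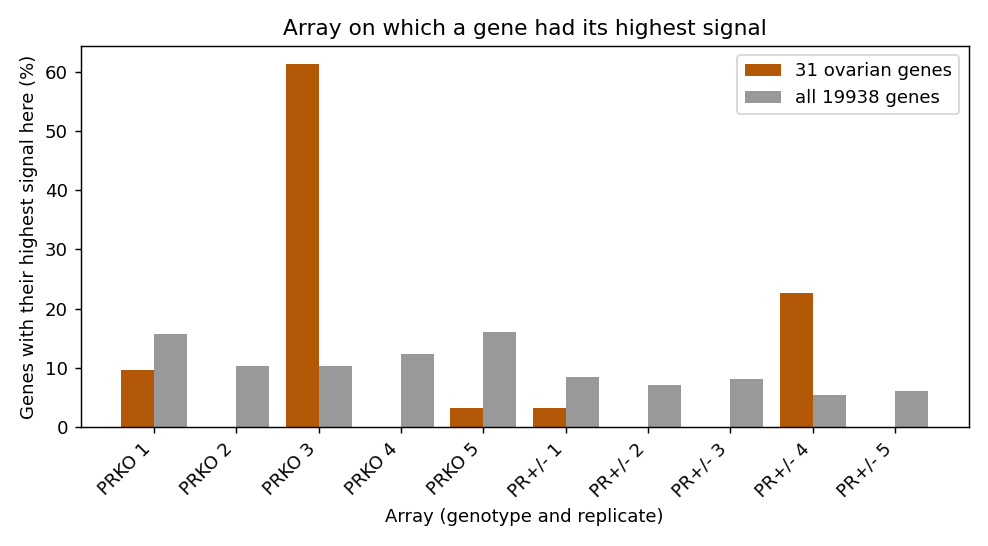
Percent of genes (vertical axis) that had their highest log2 signal on each of the 10 arrays (horizontal axis), for the 31 ovarian, cumulus and oocyte genes and for all 19938 genes. PRKO replicate 3 holds 61.3% and PR+/- replicate 4 holds 22.6% of the 31 genes, against 10.3% and 5.41% of all genes.

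**Figure D2:**
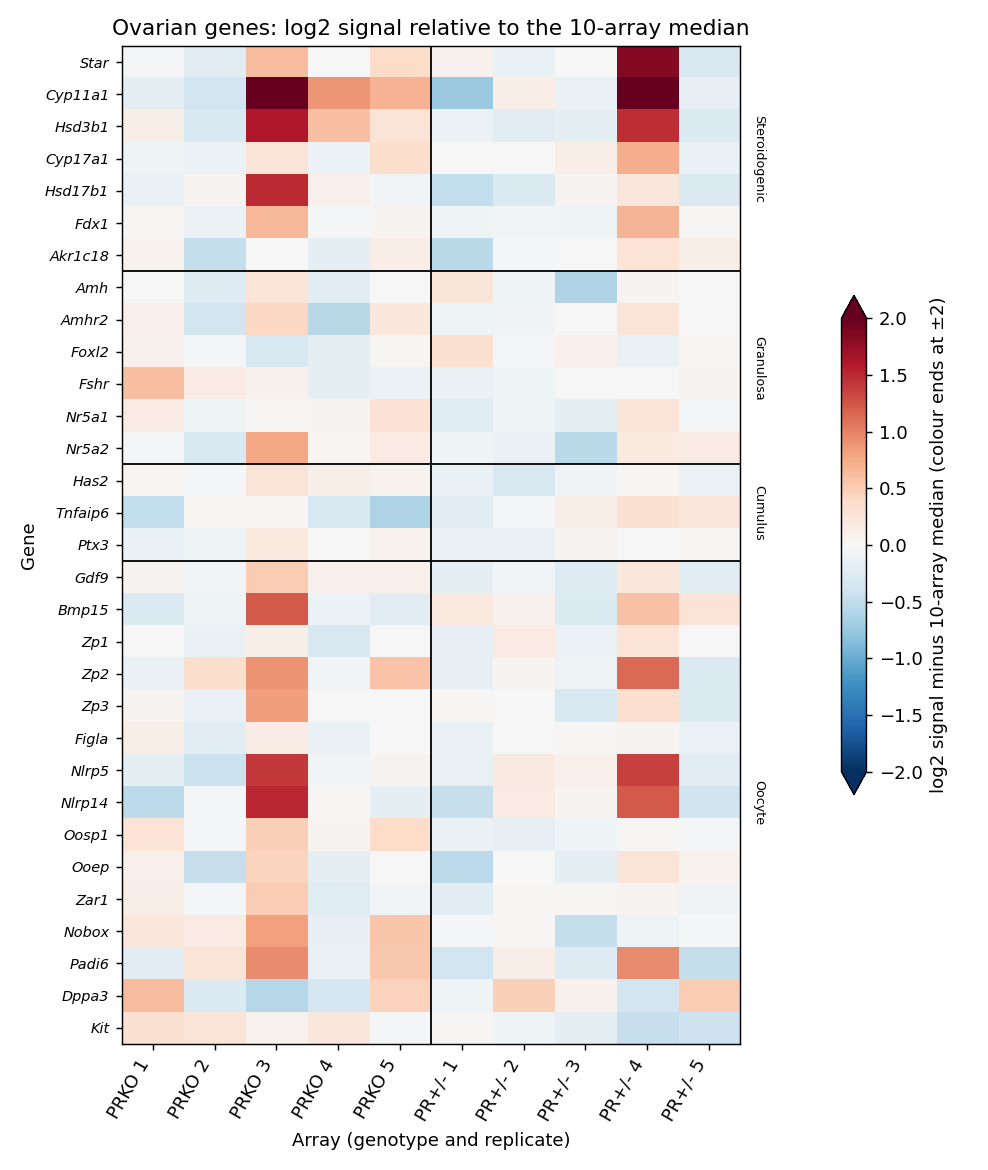
Log2 signal of each of the 31 genes minus its median over the 10 arrays (colour, with the scale ending at 2 in either direction), with genes in rows by class and arrays in columns, PRKO to the left of PR+/-. The columns of PRKO replicate 3 and PR+/- replicate 4 are the darkest for Cyp11a1, Hsd3b1, Nlrp5 and Nlrp14, while the cumulus rows stay pale.

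The widest departures were those of genes of steroid synthesis. Cyp11a1, the mitochondrial enzyme that cuts the side chain of cholesterol to make pregnenolone, had log2 signals of 3.61, 3.41, 7.10, 4.68 and 4.48 on PRKO replicates 1 to 5, against 3.05, 3.92, 3.65, 7.04 and 3.62 on PR+/- replicates 1 to 5. One array of each genotype was thus near 7, and the other 8 lay between 3.05 and 4.68. PRKO replicate 3 was 3.31 above the 10-array median of 3.79 and PR+/- replicate 4 was 3.26 above it, and that median is itself a dim signal, so no fold is given. PRKO replicates 4 and 5 were also above every PR+/- array but replicate 4. Of all 19938 genes, Cyp11a1 had the largest SD within genotypes, 1.53, where the median gene had 0.151.

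Hsd3b1, the dehydrogenase that turns pregnenolone into progesterone, followed the same arrays at a lower signal. It had 2.82, 2.40, 4.30, 3.30 and 2.98 on PRKO replicates 1 to 5, against 2.58, 2.49, 2.50, 4.17 and 2.43 on PR+/- replicates 1 to 5. Star, which carries cholesterol into mitochondria, had 4.62, 4.45, 5.31, 4.67 and 5.04 in PRKO, against 4.74, 4.54, 4.66, 6.50 and 4.35 in PR+/-. For Star the excess was 1.83 on PR+/- replicate 4 and only 0.64 on PRKO replicate 3. Fdx1, the ferredoxin that hands electrons to mitochondrial P450 enzymes and is made in many tissues, had 7.35 on PRKO replicate 3 and 7.37 on PR+/- replicate 4, against 6.57 to 6.76 on the other 8 arrays.

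The enzymes further along the pathway did not share 1 pattern. Hsd17b1, the granulosa enzyme that reduces estrone to estradiol, had 4.29, 4.48, 5.91, 4.53 and 4.37 in PRKO, against 3.92, 4.13, 4.48, 4.64 and 4.14 in PR+/-. It was 1.49 above its median on PRKO replicate 3 and 0.22 above on PR+/- replicate 4. Cyp17a1, the theca enzyme that leads to androgens, peaked instead on PR+/- replicate 4 at 3.92, against 3.08 to 3.54 in PRKO and 3.06 to 3.34 on the other PR+/- arrays. Akr1c18, which inactivates progesterone in the late corpus luteum, stayed between 2.42 and 3.02 in PRKO and between 2.35 and 3.18 in PR+/-. The 2 arrays therefore differed from each other, PRKO replicate 3 minus PR+/- replicate 4, by 0.06 for Cyp11a1, 0.13 for Hsd3b1, 1.27 for Hsd17b1, -0.46 for Cyp17a1 and -1.19 for Star. Each of these differences rests on 1 pool per genotype and was not tested.

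Because several of these genes were high on the same arrays, the 250 bases before their RefSeq start sites (build GRCm38.p6) were read for the motif TCAAGG, the core bound by the NR5A receptors that drive many steroidogenic genes, on both strands (CCTTGA on the other). Only promoters of genes at least 1 log2 unit above the median on either array are shown, and RefSeq's table held Cyp11a1, with 2 start sites, and Hsd3b1. The Cyp11a1 regions lie at chr9:57997774-57998023 and chr9:58014702-58014951 on the plus strand, and that of Hsd3b1 at chr3:98859795-98860044 on the minus strand. Capitals mark the motif.
Cyp11a1, first start site: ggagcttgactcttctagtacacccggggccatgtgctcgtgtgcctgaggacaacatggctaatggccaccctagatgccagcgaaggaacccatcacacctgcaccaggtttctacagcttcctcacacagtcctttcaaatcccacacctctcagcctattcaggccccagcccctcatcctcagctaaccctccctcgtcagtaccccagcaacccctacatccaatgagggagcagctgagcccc
Cyp11a1, second start site: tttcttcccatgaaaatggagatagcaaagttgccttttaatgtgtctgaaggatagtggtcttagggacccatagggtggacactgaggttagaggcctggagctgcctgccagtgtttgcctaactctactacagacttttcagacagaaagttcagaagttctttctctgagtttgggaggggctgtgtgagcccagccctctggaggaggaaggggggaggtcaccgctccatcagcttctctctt
Hsd3b1: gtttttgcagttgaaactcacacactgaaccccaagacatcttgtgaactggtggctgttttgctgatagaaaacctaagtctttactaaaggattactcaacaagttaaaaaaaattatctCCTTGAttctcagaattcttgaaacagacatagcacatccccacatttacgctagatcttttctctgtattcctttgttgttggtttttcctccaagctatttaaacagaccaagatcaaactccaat
The Hsd3b1 region held 1 match, beginning 128 bases before the start site, and neither Cyp11a1 region held these letters. Of the 5 promoters that the table held for 4 of the steroidogenic genes, 2 had the motif, the other being that of Fdx1, with 2 matches. Among all 32851 promoters in the table, 12.5% held the motif in the same 250 bases. A match is a description of the letters and not a bound site.

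The 6 granulosa genes of the list moved less than the steroidogenic ones. Nr5a2, a nuclear receptor of granulosa and luteal cells, had 4.03, 3.77, 4.86, 4.12 and 4.24 in PRKO, against 3.99, 3.94, 3.53, 4.27 and 4.25 in PR+/-, so only PRKO replicate 3 stood above the rest, by 0.78 over the median. Nr5a1, its steroidogenic relative, ran from 5.08 to 5.46 in PRKO, against 4.93 to 5.42 in PR+/-. Amhr2, the receptor for anti-Müllerian hormone, which in the mouse is also made in the mesenchyme of the female tract, ran from 4.24 to 5.21 in PRKO, against 4.71 to 5.05 in PR+/-. The hormone's own gene, Amh, ran from 3.74 to 4.24 in PRKO and from 3.40 to 4.24 in PR+/-.

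Foxl2, a forkhead factor that keeps granulosa identity, was lower on both of these arrays than its median, by 0.32 on PRKO replicate 3 (5.06) and by 0.14 on PR+/- replicate 4 (5.23). Fshr, the receptor for follicle-stimulating hormone, ran from 3.19 to 3.99 in PRKO and from 3.25 to 3.44 in PR+/-, with 3.47 and 3.39 on PRKO replicate 3 and PR+/- replicate 4. None of the 6 granulosa genes reached an excess of 1 on any array. Their median excess was 0.17 on PRKO replicate 3 and 0.12 on PR+/- replicate 4, against 0.66 and 0.72 for the 7 steroidogenic genes on the same arrays. This did not hold for every granulosa gene. Of 19 further ones, 3 reached an excess of 1 on PRKO replicate 3, Inha, Inhba and Sfrp4, beside 0.1% of all genes. On PR+/- replicate 4, 1 of the 19 did, Inha, beside 0.13% of all genes.

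None of the 3 cumulus genes reached an excess of 1 on any array, and Has2 and Ptx3 were below the 95th percentile of olfactory receptor genes on every array. Has2, which makes hyaluronan, ran from 3.62 to 3.89 in PRKO, against 3.32 to 3.68 in PR+/-. Ptx3, a pentraxin that links the matrix, ran from 3.39 to 3.73 in PRKO, against 3.38 to 3.57 in PR+/-. Tnfaip6, which ties protein chains onto hyaluronan, had 5.21, 5.74, 5.73, 5.39 and 5.09 in PRKO, against 5.48, 5.69, 5.83, 6.01 and 5.92 in PR+/-. The 2 arrays were the top 2 for 0 of these 3 genes, and the greatest excess of any of the 3 on them was 0.30, for Tnfaip6 on PR+/- replicate 4. Not every cumulus gene stayed this low. Of 13 further ones, 1 reached an excess of 1 on PR+/- replicate 4, Vcan, beside 0.13% of all genes. On PRKO replicate 3, 0 of the 13 did, beside 0.1% of all genes.

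Some oocyte transcripts were high on the same arrays as the steroidogenic ones. On PRKO replicate 3, 3 of the 15 oocyte genes reached an excess of 1, beside 0.1% of all genes. On PR+/- replicate 4, 3 of the 15 did, beside 0.13% of all genes. Nlrp14, an oocyte gene of the NLR family, had 2.68, 3.17, 4.70, 3.23 and 3.01 in PRKO, against 2.74, 3.36, 3.24, 4.42 and 2.80 in PR+/-. Nlrp5, which encodes the maternal protein MATER, had 3.32, 3.06, 4.91, 3.44 and 3.55 in PRKO, against 3.35, 3.68, 3.60, 4.85 and 3.28 in PR+/-. For both genes PRKO replicate 3 and PR+/- replicate 4 were at or above 4.42 and the other 8 arrays at or below 3.68. Their SDs within genotypes, 0.730 and 0.683, ranked 14 and 19 among all genes.

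Other oocyte genes were raised on these arrays by unlike amounts. Bmp15, a growth factor that the oocyte secretes, had 3.44, 3.65, 4.95, 3.61 and 3.50 in PRKO, against 3.93, 3.81, 3.45, 4.32 and 4.0 in PR+/-, an excess of 1.22 on PRKO replicate 3 and 0.59 on PR+/- replicate 4. Its partner Gdf9 had an excess of 0.51 on PRKO replicate 3 and 0.23 on PR+/- replicate 4. Zp2, a zona pellucida glycoprotein, had 3.05, 3.55, 4.10, 3.14 and 3.76 in PRKO, against 3.03, 3.25, 3.10, 4.33 and 2.91 in PR+/-. Here the excess was 0.90 on PRKO replicate 3 and 1.13 on PR+/- replicate 4.

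The zona genes were not alike. Zp3 had an excess of 0.84 on PRKO replicate 3 and 0.34 on PR+/- replicate 4, while Zp1 had 0.12 and 0.28 on those arrays. Padi6, a protein of the cytoplasmic lattices of the egg, had 3.64, 4.11, 4.80, 3.71 and 4.40 in PRKO, against 3.47, 4.0, 3.60, 4.80 and 3.38 in PR+/-, the same signal on both arrays. Nobox, an oocyte homeobox factor, was 0.82 above its median on PRKO replicate 3 and 0.10 below it on PR+/- replicate 4. Ooep, Zar1 and Oosp1, a maternal complex subunit, a zygotic arrest gene and a secreted oocyte protein, had excesses of 0.44, 0.51 and 0.47 on PRKO replicate 3 and of 0.25, 0.05 and 0.03 on PR+/- replicate 4. Figla, the helix-loop-helix factor that activates the zona genes, had 0.15 and 0.06.

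Dppa3, also called Stella, a maternal chromatin protein, ran the other way on both arrays and was 0.57 below its median on PRKO replicate 3 and 0.38 below on PR+/- replicate 4. It has 2 probe sets of 1 symbol, and the second, dimmer one differed between genotypes by 0.12 where the first differed by -0.14. Of the 15 oocyte genes, PRKO replicate 3 was the highest array for 11 and PR+/- replicate 4 for 2, and the median excess was 0.51 and 0.25. For 24 further oocyte genes the median excess on these arrays was smaller, 0.23 and 0.06.

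The promoters of the oocyte genes past an excess of 1 are shown with the E-box CANNTG in capitals, the letters that FIGLA and other helix-loop-helix factors bind, read the same on both strands. The table held 2 start sites for Nlrp5 and 1 for Bmp15, on chromosomes 7 and X. The Nlrp5 regions are chr7:23403852-23404101 and chr7:23385639-23385888 on the plus strand, and that of Bmp15 is chrX:6320725-6320974 on the minus strand.
Nlrp5, first start site: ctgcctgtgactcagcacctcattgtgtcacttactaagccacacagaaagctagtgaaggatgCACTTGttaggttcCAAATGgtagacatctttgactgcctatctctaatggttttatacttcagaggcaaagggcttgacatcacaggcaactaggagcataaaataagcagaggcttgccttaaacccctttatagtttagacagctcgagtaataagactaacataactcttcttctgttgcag
Nlrp5, second start site: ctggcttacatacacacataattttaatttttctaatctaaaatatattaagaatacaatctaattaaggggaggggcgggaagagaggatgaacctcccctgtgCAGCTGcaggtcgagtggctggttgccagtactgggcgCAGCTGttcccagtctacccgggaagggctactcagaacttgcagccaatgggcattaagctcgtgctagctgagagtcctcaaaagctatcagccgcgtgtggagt
Bmp15: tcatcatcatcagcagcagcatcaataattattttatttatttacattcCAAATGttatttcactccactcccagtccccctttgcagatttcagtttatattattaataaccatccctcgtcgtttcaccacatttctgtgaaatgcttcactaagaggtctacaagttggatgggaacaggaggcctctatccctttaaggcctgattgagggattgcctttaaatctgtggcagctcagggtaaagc
Each Nlrp5 region held 2 E-boxes and the Bmp15 region 1. Of the 12 promoters that the table held for 10 of the oocyte genes, 10 had an E-box, beside 66.2% of all promoters, so the letters are common. Promoters were found for 20 of the 31 genes in all.

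No probe set has a detection call, so the 1027 olfactory receptor genes, which an oviduct is not known to use, served as a rough gauge of dim signal. Their 95th percentile was 4.08 to 4.51 on PRKO arrays and 4.03 to 4.25 on PR+/- arrays. Probe sets differ in brightness for the same amount of RNA, so a place above or below this level is a description and no detection call. On PRKO replicate 3, 18 of the 31 genes were above it, against 9 to 13 on the other PRKO arrays. On PR+/- replicate 4, 20 were above it, against 9 to 12 on the other PR+/- arrays.

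The 9 genes above it on all 10 arrays were Star, Fdx1, Amhr2, Foxl2, Nr5a1, Tnfaip6, Ooep, Zar1 and Kit. The 9 above it on none were Cyp17a1, Akr1c18, Fshr, Has2, Ptx3, Figla, Oosp1, Nobox and Dppa3. Cyp11a1 was above it on 3 arrays, Nlrp5, Nlrp14, Bmp15 and Padi6 on 2 each, and Hsd3b1 and Zp2 on 1. An array understates fold changes at such low signals.

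**Figure D3:**
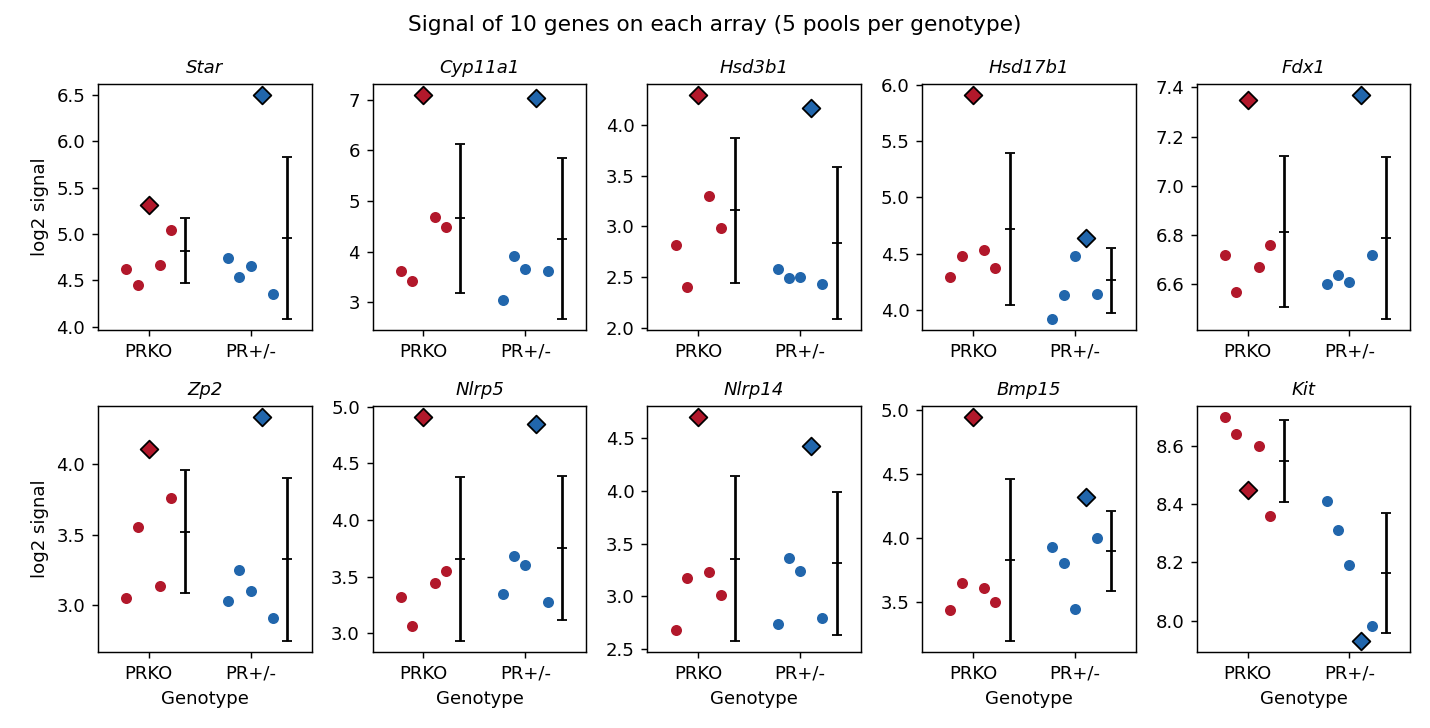
Log2 signal (vertical axis, scaled per gene) of 10 genes on the 5 PRKO and 5 PR+/- arrays, in replicate order from left to right, with the mean and SD beside each group. Diamonds are PRKO replicate 3 and PR+/- replicate 4, which lie far above the other points for Cyp11a1, Hsd3b1, Nlrp5 and Nlrp14 but not for Kit.

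Genes outside the list were looked up on the same arrays. On PRKO replicate 3 the 10 genes with the largest excess were Cyp11a1, Akr1cl (2.60), Prss35 (2.38), Inha (2.02), Clca1 (1.80), Sult1e1 (1.79), Hsd3b1, Ephx2 (1.57), Elobl (1.55) and Nlrp14. On PR+/- replicate 4 they were Cyp11a1, Elobl (2.33), Prss35 (2.24), Ephx2 (2.18), Sult1e1 (2.03), Akr1cl (2.0), Star, Inha (1.59), Hsd3b1 and Coch (1.41). Inha encodes the inhibin alpha subunit of granulosa cells, Sult1e1 the estrogen sulfotransferase, Prss35 a serine protease of the mouse ovary and Ephx2 the soluble epoxide hydrolase. Clca1 had an excess of 0.23 on PR+/- replicate 4, and Coch one of 0.00 on PRKO replicate 3, so those belonged to 1 array only among these 2.

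Measured against its own genotype's median, which the other genotype does not share, PRKO replicate 3 had 19 genes at an excess of at least 1 and PR+/- replicate 4 had 24. They had 10 in common, 52.6% of the first list and 41.7% of the second: Akr1cl, Cyp11a1, Elobl, Ephx2, Hsd3b1, Inha, Nlrp14, Nlrp5, Prss35 and Sult1e1. PRKO replicate 5 had more such genes than either array, 42. PRKO replicates 1, 2 and 4 had 11, 0 and 5, and PR+/- replicates 1, 2, 3 and 5 had 3, 2, 2 and 4. None of the 31 ovarian, cumulus and oocyte genes was among the genes of these other arrays. Any other pair of a PRKO and a PR+/- array had at most 1 gene in common, though most of those lists were short. Sult1e1 was also shared by PRKO replicate 4 and PR+/- replicate 4.

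Markers of the oviduct's own cells did not stand apart on these arrays. The median excess of 6 epithelial markers was -0.03 on PRKO replicate 3 and -0.11 on PR+/- replicate 4, that of 6 macrophage markers 0.14 and -0.15, and that of 5 endothelial markers -0.06 and 0.03. For 6 smooth muscle markers, all of which fell in PRKO oviducts, it was -0.31 and 0.27. Of these 23 markers, 0 reached an excess of 1 on either array. Each epithelial and muscle list was bright on every array. The epithelial list had a mean log2 signal of 7.85 to 8.09 in PRKO and 7.81 to 7.99 in PR+/-. The muscle list had 9.08 to 9.31 in PRKO and 10.01 to 10.23 in PR+/-. Ovgp1, also listed as an epithelial marker, was not among the genes measured, so the identity of the tissue rests on its label.

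The comparison of the 5 PRKO with the 5 PR+/- pools asks whether the ovarian transcripts differ without the progesterone receptor. Of the 31 genes, Kit alone passed, and rose, in limma's test at a threshold of 0.05 after Benjamini-Hochberg adjustment over all genes, and 30 did not pass. Of all genes, 4.96% passed (988 of 19938), 1.09% higher and 3.87% lower in PRKO, so a share of 1 in 31 is near the background. The median log2 change of the 31 genes was 0.06, against 0.03 for all genes, and 21 of them were above 0 and 10 below. At an unadjusted p under 0.05, 5 of the 31 passed, Has2, Oosp1, Nobox and Kit with higher and Tnfaip6 with lower signal in PRKO, beside 21.1% of all genes. The genotypes overlapped for every one of the 31 genes, whereas 7.2% of all genes did not overlap.

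Kit, the receptor of the growth factor made by granulosa cells, sits on oocytes and also on mast cells, melanocytes and the pacemaker cells of smooth muscle. Its log2 signal was 8.70, 8.64, 8.45, 8.60 and 8.36 on PRKO replicates 1 to 5, against 8.41, 8.31, 8.19, 7.93 and 7.98 on PR+/- replicates 1 to 5. PRKO pools were the higher, with an overlap of PRKO replicate 5 and PR+/- replicate 1. The log2 change was 0.39 ± 0.10 (SE, n = 5 each), a 1.31-fold signal, at a limma adjusted p of 0.0476. PR+/- replicate 4, the highest array for 2 of the 15 oocyte genes, had the lowest Kit signal of all. On PRKO replicate 3, the highest array for 11 of them, Kit was 0.07 above its median over the 10 arrays. At 8.45 it was below the PRKO median of 8.60 there.

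The Kit call was marginal. The limma adjusted p was 0.0607 with array weights and 0.0635 to 0.113 without any single array other than PRKO replicate 5 or PR+/- replicate 1, while the log2 change stayed between 0.33 and 0.45. Without both PRKO replicate 3 and PR+/- replicate 4 the change was 0.35 at an adjusted p of 0.137, and 0 of the 31 genes passed, beside 2.82% of all genes. Of 8 mast cell markers, 7 did not pass and Gata2, a transcription factor that other cells make too, fell by 0.65 (limma adjusted p = 0.00697). The mean log2 signal of these markers was 3.51 to 3.65 in PRKO and 3.52 to 3.63 in PR+/-, with Gata2 the brightest of them. These means were below the olfactory receptor level of 4.03 to 4.51, so a change in such dim markers could go unseen. The part of other Kit-bearing cells in the difference was not tested.

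For the genes that stood apart, the spread left wide intervals. Cyp11a1 averaged 4.65 ± 1.47 in PRKO and 4.26 ± 1.59 in PR+/- (SD, n = 5 each), a log2 change of 0.40 with a 95% interval of -1.17 to 1.97. A single array set its sign, since the change was -0.21 without PRKO replicate 3 and 1.09 without PR+/- replicate 4. Without both it was 0.48 ± 0.27 (SE, n = 4 each, limma adjusted p = 0.396). Star had a change of -0.14 with an interval of -0.83 to 0.55, and 0.12 without both arrays.

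Hsd3b1 had a log2 change of 0.32 (95% interval -0.43 to 1.08), Nlrp14 one of 0.04 (-0.71 to 0.80) and Nlrp5 one of -0.09 (-0.80 to 0.62). Hsd17b1 had 0.45 (-0.09 to 1.00), which was 0.25 without both arrays. A 2-fold rise and a 2-fold fall, 1 and -1 on the log2 scale, both lie outside the intervals of Nlrp5, Nlrp14 and Star. The interval of Hsd3b1 holds such a rise but not such a fall, and that of Cyp11a1 holds both. These are limits on signal and not on RNA. Nlrp5, Nlrp14 and Hsd3b1 were below the olfactory receptor level on most arrays, and an array understates fold changes at such signals.

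Among genes with smaller SDs within genotypes than those above, Tnfaip6 had a log2 change of -0.36 ± 0.14 (SE, limma adjusted p = 0.151). Has2 had one of 0.21 ± 0.082 (adjusted p = 0.154), so these matrix genes pointed in opposite directions and neither passed. Oosp1 had 0.30 ± 0.098 (adjusted p = 0.0954) and Nobox 0.44 ± 0.16 (adjusted p = 0.129). Oosp1 passed when PRKO replicate 2 was left out (adjusted p = 0.0350) and Nobox when PRKO replicate 4 was (adjusted p = 0.0364). Has2, Oosp1 and Nobox are among the genes that were above the olfactory receptor level on no array. Gdf9 had 0.24 ± 0.12 (adjusted p = 0.246). The remaining genes had log2 changes between -0.14 and 0.28, and none of them passed.

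**Figure D4:**
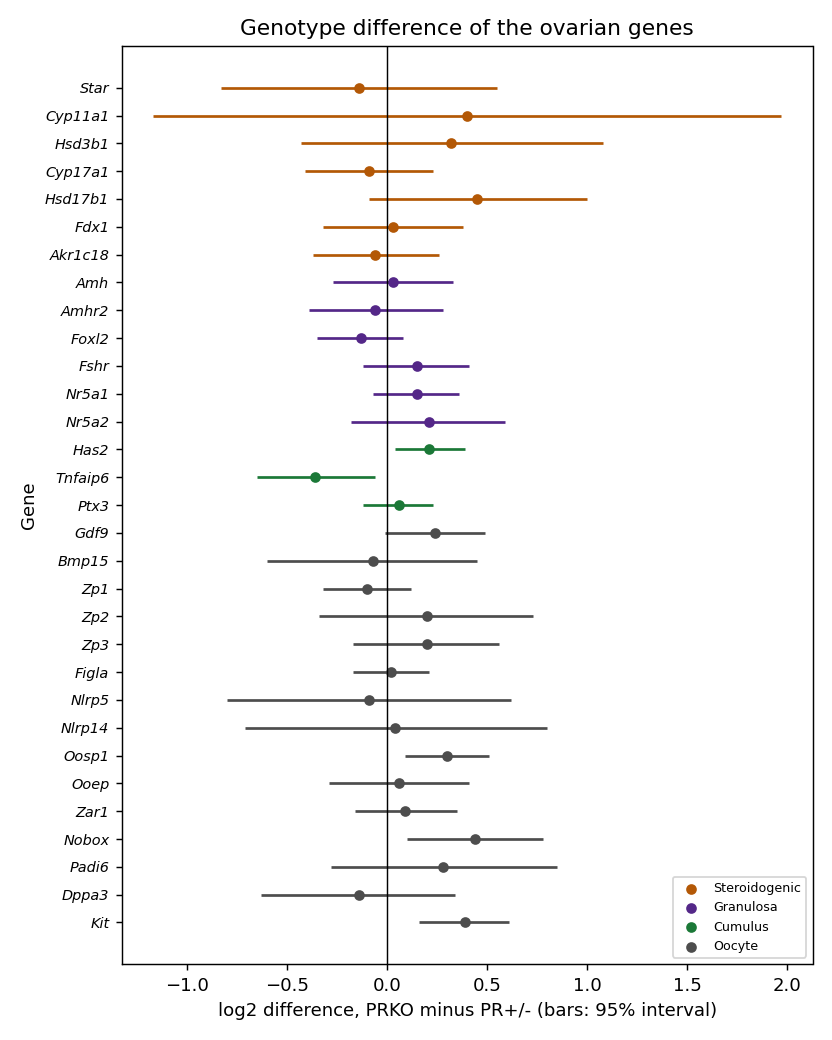
Log2 difference of PRKO minus PR+/- oviducts (horizontal axis, points) with its 95% interval from limma (lines) for the 31 genes, grouped and coloured by class. The interval of Cyp11a1, from -1.17 to 1.97, is the widest, and the intervals of Kit, Nobox, Oosp1, Has2 and Tnfaip6 do not cross 0.

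Wider lists of ovarian genes gave the following counts in the same fit, in which 1.09% of all genes rose and 3.87% fell. The lists are short, and nothing particular to a list is read from its count. Of 12 further genes of steroid handling, 1 fell, Srd5a3, a reductase that acts on steroids and on dolichol precursors (log2 -0.40, limma adjusted p = 0.0179, and 0.0762 without both arrays), and 11 did not pass. Of 19 further granulosa genes, 3 rose, 1 fell and 15 did not pass. Inhbb, an inhibin and activin beta subunit, rose by 0.44 ± 0.11, and Nppc, the natriuretic peptide that granulosa cells send to the cumulus, rose by 0.47 ± 0.11 (limma adjusted p = 0.0353 and 0.0265). The other calls were Oxtr, which rose, and Ptgfr, which fell, receptors that smooth muscle also carries. Their median log2 changes were -0.06 and 0.06 for the steroid and the granulosa list, against 0.03 for all genes.

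Inhbb had 5.80, 5.87, 6.13, 6.23 and 5.66 in PRKO, against 5.71, 5.43, 5.59, 5.37 and 5.37 in PR+/-, with PR+/- replicate 1 inside the PRKO range. Nppc had 5.72, 5.44, 5.69, 5.17 and 5.59 in PRKO, against 4.98, 5.05, 5.24, 4.81 and 5.17 in PR+/-. Neither peaked on PR+/- replicate 4, where both were at or below every other PR+/- array. Both calls were lost without PRKO replicate 3 and PR+/- replicate 4 (adjusted p = 0.174 for Inhbb and 0.144 for Nppc, 4 arrays a group). Sfrp4, a secreted Wnt inhibitor, was high on both of those arrays, at 8.35 and 8.11. Without them its log2 change passed (adjusted p = 0.0184), where with them it did not (0.59 ± 0.27, adjusted p = 0.221). The arrays left out were picked from these data and are those where Sfrp4 was highest. That pass is therefore a description and no test of genotype.

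Of 13 further cumulus genes, 3 fell and 10 did not pass. Those that fell were Adamts1, a protease that cleaves versican, Ptgs2, the inducible cyclooxygenase, and Itih5, of a family that binds hyaluronan (log2 -0.80 ± 0.11, limma adjusted p = 5.14e-04). Vcan, the matrix proteoglycan versican, had 7.52 on PRKO replicate 3 and 7.99 on PR+/- replicate 4, against 6.43 to 7.17 on the other 8 arrays, and its change of -0.32 did not pass (adjusted p = 0.458). Of 24 further oocyte genes, 1 rose, Pou5f1, the pluripotency factor OCT4 (log2 0.54 ± 0.12, adjusted p = 0.0218, and 0.0944 without both arrays), and 23 did not pass. Rfpl4, named after its values were seen, was 1.23 above its median on PRKO replicate 3, and was the only gene of that list past an excess of 1 on either array. The median log2 changes of these lists were 0.09 and 0.08.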

How the data were processed

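Oviduct RNA was measured on Affymetrix whole-transcript arrays, 10 in all. The deposited table gives the authors' processed values, 35557 probe sets by 10 arrays, made with Partek per the submitters' processing notes. How background was corrected and arrays normalized is not stated in the labels. The deposited values, from 1.09 to 13.6, were taken as log2 signal from their range. Genotype and replicate came from the sample titles. Probe sets with 1 gene symbol (21789 of 35557, with 1621 naming several and 12147 none) gave 19938 genes, each by its brightest probe set. limma 3.58.1 in R 4.3.3 fitted genotype over all genes, with 5 arrays per genotype, eBayes and Benjamini-Hochberg adjustment, with calls made at adjusted p values under 0.05. The fit was tested on simulated data. An array stood apart for a gene at a log2 excess of 1 over the gene's 10-array median. Precision is limited by the number of arrays.

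The genes and lists were chosen with earlier results of these data known, and the pair of arrays left out together had been named in an earlier account of them. Named are the listed genes with 1 symbol, Pgr, the 10 genes with the largest excess on each array that stood apart (predicted loci, olfactory and vomeronasal receptors and small RNAs passed over), and, of the wider lists, called genes and those with the largest changes. Same-numbered arrays of the 2 genotypes had correlated deviations of 0.10, 0.12, -0.01, 0.13 and 0.16, so the numbers were not taken as pairs. Promoters are RefSeq's, build GRCm38.p6. Alternatives were quantile normalization, a filter on dim genes, averaging each gene's probe sets, the interquartile range as a covariate, array weights, a replicate block and leaving out arrays.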

Additional observations from a re-analysis of the deposited data

Results flagged for a closer look

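Some values lay far from the other 4 arrays of their genotype, by a gap of more than 0.71 of the group's range. Chance alone flags about 1 group in 20, and 5.87% of all genes had such an array in PRKO and 5.58% in PR+/-, beside 7 of the 31 ovarian, cumulus and oocyte genes in each genotype.

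PRKO replicate 3 was the outlying array for Hsd17b1 at 5.91 (next highest PRKO array 4.53), Fdx1 at 7.35 (6.76), Gdf9 at 4.69 (4.28), Bmp15 at 4.95 (3.65), Zp3 at 4.45 (3.67), Nlrp5 at 4.91 (3.55) and Nlrp14 at 4.70 (3.23). Outside the list, Akr1cl was at 6.25 there (4.17). Cyp11a1 and Hsd3b1 did not meet the criterion in PRKO, where replicates 4 and 5 also lay above replicates 1 and 2.

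PR+/- replicate 4 was the outlying array for Star at 6.50 (next highest PR+/- array 4.74), Cyp11a1 at 7.04 (3.92), Hsd3b1 at 4.17 (2.58), Fdx1 at 7.37 (6.72), Zp2 at 4.33 (3.25) and Nlrp5 at 4.85 (3.68). Outside the list it was so for Akr1cl at 5.65 (3.39), Prss35 at 5.81 (3.59), Inha at 7.20 (5.64), Sult1e1 at 4.79 (2.80) and Ephx2 at 8.20 (5.98). Nobox was flagged for a low value, 2.52 on PR+/- replicate 3, with 2.89 on the next lowest PR+/- array.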

How the results depend on the processing

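The 6 genes at an excess of at least 1 on PRKO replicate 3 and the 6 on PR+/- replicate 4 were 6 and 7 against the genotype's own median, and 6 and 6 after quantile normalization and with each gene's probe sets averaged. At an excess of 0.5 the counts were 2, 15, 2 and 4 on PRKO replicates 1, 3, 4 and 5, and 10 and 1 on PR+/- replicates 4 and 5. The 988 genes called over the table (217 higher and 771 lower in PRKO) became 348 (66 and 282) with the interquartile range as a covariate and 562 (73 and 489) without PRKO replicate 3 and PR+/- replicate 4. Leaving out 1 array gave 581 to 1165 genes (84 to 330 higher, 497 to 882 lower). The replicate block gave 1042 called genes (254 higher, 788 lower), and Kit kept its call under it at a limma adjusted p of 0.0276. Of the 31 genes, the 1 called became 0 with array weights and without both arrays, and 0 to 1 when 1 array was left out.

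Changes of sign concerned only genes that were not called, and the cause was not tested. Without both arrays the log2 changes were 0.12 for Star, 0.01 for Cyp17a1, -0.01 for Amh, -0.0001 for Figla, -0.01 for Nlrp14 and -0.00017 for Zar1. With the interquartile range they were -0.12 for Cyp11a1, -0.13 for Fdx1, -0.07 for Amh, -0.02 for Nr5a1, -0.01 for Nr5a2, -0.02 for Ptx3, -0.10 for Figla, -0.24 for Ooep and -0.03 for Zar1. After quantile normalization they were -0.05 for Amh, -0.04 for Ptx3, -0.06 for Figla and -0.05 for Nlrp14, and with array weights 0.12 for Bmp15 and 0.08 for Nlrp5. With 1 array left out, 13 genes changed sign, with ranges of -0.29 to 0.24 for Star, -0.21 to 1.09 for Cyp11a1, -0.16 to 0.06 for Cyp17a1, -0.11 to 0.17 for Fdx1, -0.18 to 0.04 for Akr1c18, -0.10 to 0.11 for Amh, -0.17 to 0.07 for Amhr2, -0.35 to 0.03 for Bmp15, -0.02 to 0.07 for Figla, -0.41 to 0.18 for Nlrp5, -0.29 to 0.32 for Nlrp14, -0.05 to 0.17 for Ooep and -0.02 to 0.17 for Zar1. Genes among the dimmest 30% had no value under that filter. Dim signal limits the 9 genes that were above the olfactory receptor level on no array.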

Other observations

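Genes of the wider ovarian lists showed further patterns. Scarb1, the receptor that takes up cholesterol from high-density lipoprotein, had 7.05, 7.02, 7.62, 7.04 and 6.80 in PRKO oviducts, against 7.69, 7.46, 7.38, 7.70 and 7.43 in PR+/- oviducts. PRKO replicate 3 was the only PRKO array inside the PR+/- range. The log2 change was -0.42 ± 0.13 (SE, n = 5 each, limma adjusted p = 0.0810), and without PRKO replicate 3 and PR+/- replicate 4 it was -0.51 (adjusted p = 0.0146). The arrays left out were picked from these data and include the PRKO array inside that range. The second p-value is therefore a description and no test of genotype.

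Inhba, which encodes the beta A subunit of activin and inhibin, had 4.46, 4.06, 5.45, 3.90 and 4.07 in PRKO oviducts, against 3.50, 3.75, 3.96, 4.01 and 3.54 in PR+/- oviducts. It was 1.46 above its median on PRKO replicate 3 and 0.02 above on PR+/- replicate 4, where its partner Inha was high. Its log2 change of 0.63 ± 0.23 did not pass (limma adjusted p = 0.137).

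Akr1cl, an aldo-keto reductase gene that had the second largest excess on PRKO replicate 3, ran from 3.49 to 4.17 on the other PRKO arrays, against 2.96 to 3.39 on the PR+/- arrays other than replicate 4. Its log2 change was 0.66 ± 0.53 over all arrays (limma adjusted p = 0.50) and 0.68 without both arrays (adjusted p = 0.0297). Both arrays left out were picked from these data and are those where Akr1cl itself was highest. The second p-value is therefore a description and no test of genotype. On each of the remaining arrays Akr1cl was below the 95th percentile of olfactory receptor genes, so the second change is one between dim signals.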
